A study of Mus musculus with 8 samples.

Results

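Respiratory complexes III and IV pass electrons from ubiquinol to oxygen in the inner mitochondrial membrane, and the 35 genes described here encode their nuclear subunits, the carrier between them and the proteins that assemble them. They were taken by symbol from a table of 23535 rows with values, with the row of highest mean kept for each symbol. They comprise 23 structural subunits (9 of complex III and 14 of complex IV), 10 assembly factors, cytochrome c and Cox7a2l. The libraries were made from poly(A) RNA of heart ventricles of C57BL/6 mice at postnatal day 21, with 4 from mice lacking Med1 in the heart (Med1cKO, the knockout) and 4 from mice with floxed Med1 alleles (WT). Med1 is a subunit of Mediator, which links transcription factors to RNA polymerase II. The sources used here give neither the promoter that drove the deletion nor the number of animals behind a sample, so a p-value sets a difference against the spread of these samples alone. Values are FPKM, a fragment number divided by transcript length and by library size, which allows levels of different genes to be compared.

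Complex III, or cytochrome bc1, takes electrons from ubiquinol through its iron-sulfur protein and cytochrome c1, hands them to the mobile carrier cytochrome c, and pumps protons by the Q cycle. Complex IV, or cytochrome c oxidase, takes them from cytochrome c through copper and heme a centers to oxygen. The catalytic core of complex IV is encoded by mitochondrial DNA, and the nuclear subunits surround it; several of these have a form made mainly in heart and skeletal muscle beside a form made broadly. Assembly factors make and insert heme a, deliver copper and insert subunits into the membrane, without staying in the finished enzyme. Cytochrome b and the 3 mitochondrially encoded subunits of complex IV were not analysed here.

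Med1 had 7.80 to 9.15 FPKM in the knockout libraries and 10.6 to 16.8 in WT. FPKM totals ran from 481719 to 502629 in the knockout and from 507484 to 536174 in WT, and sequencing depth is unknown. Ventricular cardiomyocyte markers were present in all libraries; all 6 were called lower in the knockout, with summed levels of 16725 to 26400 FPKM against 49427 to 55424. Of 6 fibroblast markers 4 were called higher (sums of 651 to 1081 against 508 to 596 FPKM), and of 6 atrial markers 4 (5041 to 7932 against 194 to 379, mostly Nppa). Of 6 smooth muscle and pericyte markers 3 were called lower and 2 higher (167 to 179 against 223 to 257 FPKM). Endothelial sums (236 to 304 against 243 to 298 FPKM, with 1 of 6 markers called higher and 2 lower), leukocyte sums (78.8 to 191 against 98.4 to 171) and erythroid sums (2156 to 17819 against 2387 to 12207) overlapped between the groups. Knockouts 1 and 4 had the highest levels of several genes of other tissues. The atrial light chain gene Myl7 was at 61.6, 42.6, 2.5 and 726 FPKM in knockouts 1 to 4 and at most 0.68 in WT. The atrial gene Myl4 was at 81.7, 50.8, 19.1 and 781 FPKM in knockouts 1 to 4 and at most 6.34 in WT. Sln was at 18.6, 9.11, 0.429 and 188 FPKM and was listed at 0 in WT. Knockout 2 was thus near knockout 1 for these atrial genes. The club cell gene Scgb1a1 was at 11.1 and 111 FPKM in knockouts 1 and 4 and under 2 in the other 6 libraries. The lung markers Sftpc and Sftpb were at or near 0 in all. The brown fat gene Ucp1 was at 8.82 and 102 FPKM in knockouts 1 and 4. It was at 0.0511 and 0.202 in knockouts 2 and 3, and was listed at 0 in WT. Of 4 brown fat markers 2 were called higher, Cidea and Dio2. The sum of the 4 was 37.5 to 169 FPKM in the knockout and 12.5 to 28.8 in WT. In knockouts 2 and 3 most of this sum was Cidea (32.5 of 37.5 and 42.4 of 47.4 FPKM). Skeletal muscle markers summed to 4.75 to 14.1 FPKM in the knockout and 1.36 to 2.7 in WT, but they did not move together. Tnnt3 and Mylpf were called higher (means of 5.88 and 1.95 against 0.286 and 0.678 FPKM). Myh1, Myh2 and Myh4 had lower means in the knockout (0.0659, 0.0372 and 0.00543 against 0.895, 0.0906 and 0.0687 FPKM). They averaged under 1 FPKM and were not tested. Myog was listed at 0 in all libraries. Among all genes tested, 44.9% were called higher and 16.4% lower. On other scales some of these marker counts changed. Fibroblast markers called higher were 2 of 6 after rescaling and 3 of 6 after quantile normalization. Endothelial markers were 0 higher and 4 lower in both, and smooth muscle and pericyte markers 1 higher and 3 lower in both. Cardiomyocyte markers were 5 of 6 lower after quantile normalization. Of all genes, 26.9% were higher and 26.7% lower after rescaling, and 28.7% and 25.6% after quantile normalization. What lies behind these marker differences, and what it contributes to the values below, was not tested. In bulk RNA fewer cells of a type cannot be told apart from less RNA of the marker genes per cell. Counts without knockouts 1 and 4 are given beside the main ones, although they still include the atrial transcripts of knockout 2.

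Transcripts of complexes III and IV were mostly lower in the knockout. All 35 genes passed the expression minimum. Of them, 26 were called lower and 2 higher, where called means an adjusted p under 0.05 from limma over the 11975 genes averaging 1 FPKM or more; among those genes 16.4% were called lower and 44.9% higher. The median log2 change (knockout minus WT, on log2(FPKM + 1)) was -0.47 over the 35 genes and 0.25 over all genes tested. Without knockouts 1 and 4 the counts were 22 lower and 3 higher. The 4 knockout libraries all lay below the 4 WT libraries for 24 of the 35 genes and all above for 1, against 15.3% and 41.7% of all genes. Together the 35 transcripts made up 4.2% to 4.84% of the FPKM total in the knockout libraries and 6.29% to 6.54% in WT, so that these values did not overlap.

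These counts moved with the scaling. After median-of-ratios rescaling, which brings the median change of all genes from 0.25 to 0.01, 30 of the 35 were lower and 1 higher, with 26.7% and 26.9% of all genes. After quantile normalization 20 were lower and 5 higher, with 25.6% and 28.7% of all genes; Uqcr10, Cox6b1 and Cox6c were then called higher beside Cox17 and Cox19. The authors' deposited table marks 28 of the 35 as significantly lower and 1, Cox19, as higher, where it marks 22.8% and 23.1% of its 12538 tested genes. Its log2 folds were -1.84 for Uqcrc1, -0.14 for Cox6a1, -0.15 for Cox8a and 0.05 for Cox17. The rescaled estimates of these genes were -1.86, -0.13, -0.15 and 0.04, and those on the deposited scale -1.58, 0.15, 0.13 and 0.32. For Cox11 the fold lay farther off, at -0.88, with -0.78 after rescaling and -0.54 on the deposited scale.

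**Figure D1:**
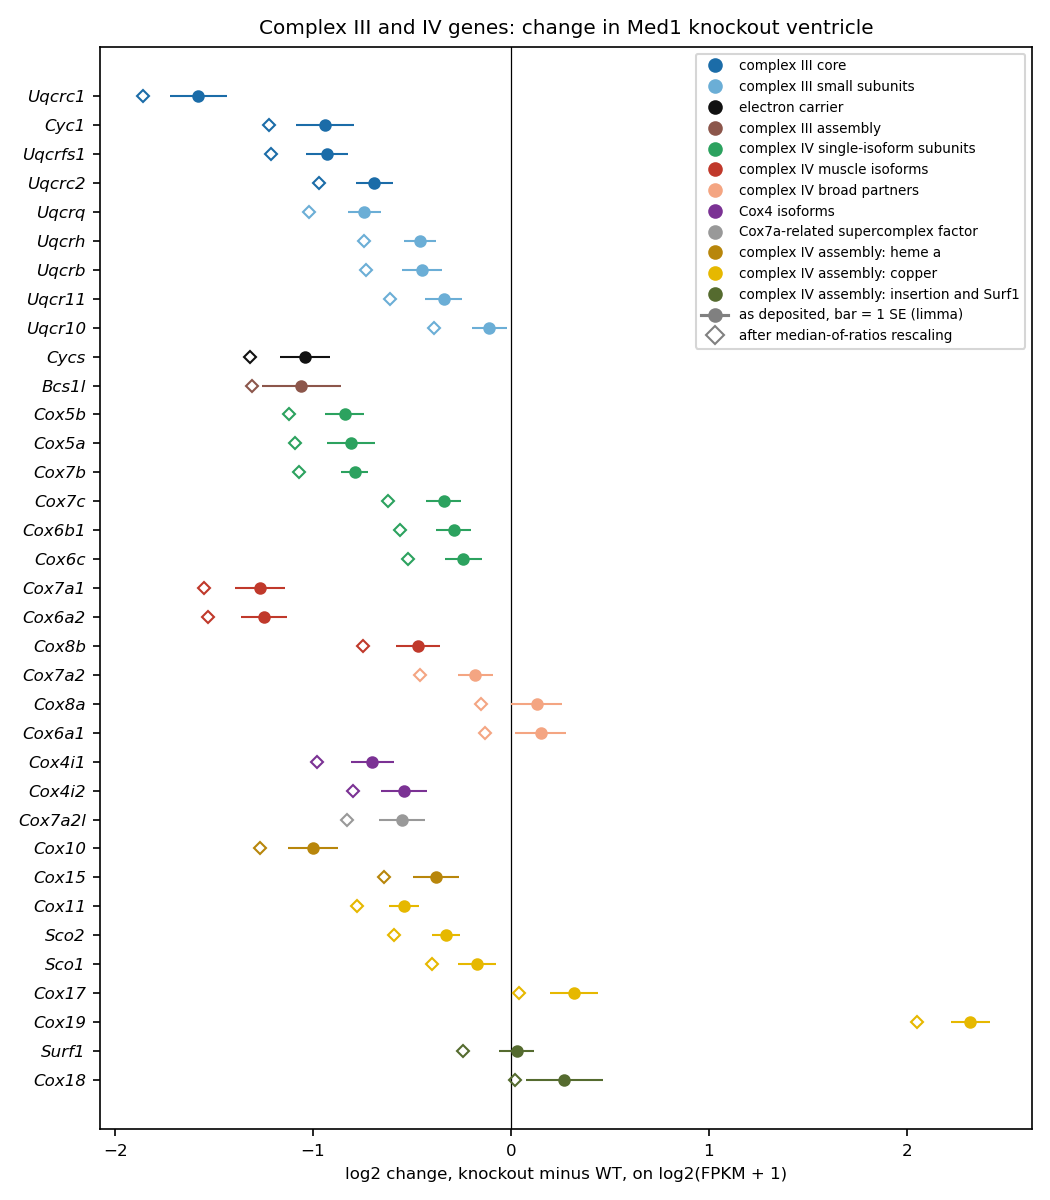
Log2 change of each of the 35 genes, knockout minus WT on the log2(FPKM + 1) scale (x axis), grouped and coloured by role (y axis). Filled points are limma estimates from the deposited FPKM with bars of 1 SE (n = 4 libraries per group), and open diamonds are the estimates after median-of-ratios rescaling; most points lie left of 0, from -1.58 for Uqcrc1, and Cox19 stands alone at 2.32 on the right. Under quantile normalization, which is not drawn, Uqcrh, Uqcr10, Uqcr11, Cox6b1, Cox6c, Cox7c and Surf1 took the opposite sign.

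Sequence upstream of the start was compared between the forms of a subunit and in genes with large changes. RefSeq promoters (GRCm38.p6, the mm10 assembly) were matched for 25 of the 35 genes, and 250 bases before each start were searched on both strands. The letters were GCGCANGCG for NRF1 and CCGGAAG for ETS factors such as GABP, both known activators of respiratory genes; AAGATGGC for YY1; TNAAGGTCA for the estrogen-related receptors; TAAAAATAG for MEF2, a muscle factor; and CAGCTG, an E-box bound by muscle bHLH factors. The last 170 bases before the start are shown, 5′ to 3′ on the gene's strand, with matches in capitals.
The broad form of each pair that was matched comes next to its muscle form, followed by Cox6a1, Cycs, Uqcrc1 and Cox19; the last 3 changed by over 1 on the log2 scale.
Cox7a1, chr7:30184001-30184170, plus strand: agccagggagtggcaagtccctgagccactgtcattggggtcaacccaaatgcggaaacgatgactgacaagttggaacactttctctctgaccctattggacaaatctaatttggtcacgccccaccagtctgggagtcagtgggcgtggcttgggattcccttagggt
Cox7a2, chr9:79759854-79760023, minus strand: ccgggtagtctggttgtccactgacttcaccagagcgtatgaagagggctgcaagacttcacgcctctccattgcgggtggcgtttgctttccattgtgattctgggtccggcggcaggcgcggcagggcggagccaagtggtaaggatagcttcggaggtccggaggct
Cox8b, chr7:140900447-140900616, minus strand: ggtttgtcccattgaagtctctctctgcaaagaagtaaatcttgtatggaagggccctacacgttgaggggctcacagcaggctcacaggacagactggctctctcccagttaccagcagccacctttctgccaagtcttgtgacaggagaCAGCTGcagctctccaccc
Cox8a, chr19:7217617-7217786, minus strand: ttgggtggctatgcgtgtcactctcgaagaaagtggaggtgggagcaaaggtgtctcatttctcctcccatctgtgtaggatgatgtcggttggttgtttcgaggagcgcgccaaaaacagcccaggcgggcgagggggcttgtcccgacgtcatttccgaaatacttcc
Cox6a1, chr5:115348959-115349128, minus strand: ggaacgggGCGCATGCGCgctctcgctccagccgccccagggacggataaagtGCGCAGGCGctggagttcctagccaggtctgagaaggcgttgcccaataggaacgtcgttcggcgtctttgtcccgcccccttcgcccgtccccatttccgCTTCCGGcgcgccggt
Cycs, chr6:50566570-50566739, minus strand: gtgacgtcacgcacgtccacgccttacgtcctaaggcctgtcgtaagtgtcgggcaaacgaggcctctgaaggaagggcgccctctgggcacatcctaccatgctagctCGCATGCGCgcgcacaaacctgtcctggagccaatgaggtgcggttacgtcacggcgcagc
Uqcrc1, chr9:108936478-108936647, plus strand: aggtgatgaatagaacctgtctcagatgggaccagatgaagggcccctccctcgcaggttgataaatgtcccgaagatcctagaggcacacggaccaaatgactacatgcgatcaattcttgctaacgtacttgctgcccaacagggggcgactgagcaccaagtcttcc
Cox19, chr5:139345167-139345336, minus strand: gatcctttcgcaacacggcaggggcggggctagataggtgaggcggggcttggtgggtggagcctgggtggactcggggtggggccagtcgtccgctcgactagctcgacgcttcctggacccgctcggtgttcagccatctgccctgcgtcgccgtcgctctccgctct

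In these windows of 250 bases, Cox7a1 and Cox8b held 4 and 1 CpG dinucleotides, and their partners Cox7a2 and Cox8a 14 and 11; the median of all 27025 promoters was 6. GC content was 51.2% and 47.2% in the muscle forms and 54.8% and 52.8% in the partners, against a median of 52.0%. NRF1 letters were in 2 of 25 promoters, those of Cox6a1 and Cycs, and in 5.33% of all promoters. The matches of Cox6a1 lay 162 to 153 and 117 to 109 bases before the start, the first of them on both strands and overlapping, and that of Cycs 61 to 53 bases before a RefSeq start that lies upstream of the deposited locus. The log2 changes of Cycs and Cox6a1 had 95% intervals of -1.35 to -0.74 and -0.16 to 0.46, which did not overlap. ETS letters were in 7 of 25 (Bcs1l, Cox10, Cox6a1, Cox6b1, Sco1, Uqcr11 and Uqcrh) and in 7.05% of all promoters. The E-box, which reads the same on both strands, was in 2 of 25 (Cox8b and Sco2) and in 12.8% of all. YY1, estrogen-related receptor and MEF2 letters were in 0 of 25, and in 1.59%, 1.14% and 0.451% of all promoters. Cox7a1, Cox7a2, Cox8a, Uqcrc1 and Cox19 held none of the 6 in this window.

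All 4 core subunits of complex III were called lower, and 3 of them had larger estimates than any small subunit of that complex. Uqcrc1, the first of the paired core proteins that face the matrix (chromosome 9, 108936648 to 108949641, mm10), had 184, 316, 241 and 237 FPKM in the knockout libraries and 701, 700, 772 and 711 in WT. Its highest knockout library was far below its lowest WT library, and its knockout mean was 33.9% of WT. Mean levels were 245 ± 54.6 and 721 ± 34.2 FPKM (SD, n = 4 each), and the log2 change was -1.58 (SE 0.144, limma adjusted p = 2.03e-05). Uqcrc2, the second core protein, was at 434 ± 43.9 and 697 ± 46.0 FPKM (SD, n = 4 each), a log2 change of -0.69 (limma adjusted p = 0.000203). The 2 core proteins had similar levels in WT, and the 95% intervals of their changes, -1.93 to -1.23 and -0.92 to -0.46, did not overlap.

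The subunits that carry the electrons had nearly equal estimates. Cyc1, cytochrome c1, had 336, 583, 442 and 429 FPKM in the knockout and 804, 807, 860 and 919 in WT. Uqcrfs1, the Rieske iron-sulfur protein, had 337, 470, 391 and 372 FPKM against 718, 726, 731 and 802. In neither gene did the groups overlap, and the knockout means were 52.8% and 52.7% of WT. The log2 changes were -0.94 (SE 0.148, limma adjusted p = 0.000464) for Cyc1 and -0.93 (SE 0.105, limma adjusted p = 6.71e-05) for Uqcrfs1. Knockout 1 was the lowest and knockout 2 the highest knockout library for Uqcrc1, Cyc1 and Uqcrfs1. The median change over all 4 core genes was -0.94.

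The 5 small subunits of complex III, which lie around the core and had higher WT levels than it, had a median change of -0.45, with 4 of 5 called lower. Uqcrq, which binds the cytochrome b side of the complex, had 628, 692, 672 and 573 FPKM in the knockout and 1074, 1089, 1005 and 1122 in WT, and changed by -0.74 on the log2 scale (SE 0.0827, limma adjusted p = 6.11e-05). Uqcrh, the hinge protein at cytochrome c1, had 1387, 1484, 1467 and 1328 FPKM against 1868, 1996, 1827 and 2115. Uqcrb had 909, 1084, 1164 and 1043 FPKM against 1367, 1369, 1351 and 1646. In none of these did the groups overlap. The log2 changes of Uqcrh and Uqcrb were -0.46 and -0.45 (limma adjusted p = 0.000838 and 0.00408), but after quantile normalization they were 0.01 and -0.03 and neither was called. Uqcr11 was at 1390 ± 150 and 1748 ± 72.0 FPKM (SD, n = 4 each), a change of -0.34, which was 0.13 after quantile normalization. Uqcr10 was at 1011 ± 94.1 and 1088 ± 61.9 FPKM (SD, n = 4 each); its change of -0.11 (95% interval -0.33 to 0.11, limma adjusted p = 0.312) was not called, and it was -0.39 after rescaling and 0.29 after quantile normalization, called in opposite directions.

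Transcript length also separated the core genes from most of the small ones. The longest transcripts of the 4 core genes were 1363 to 1896 nt, and those of the small subunits 434 to 547 nt apart from Uqcrq at 1521 nt. Among all genes averaging 200 FPKM or more, those with a longest transcript under 1000 nt had a median log2 change of 0.10 (n = 124) and the longer ones -0.13 (n = 243). The part of length in the difference between core and small subunits was not tested.

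Cytochrome c and the factor that completes complex III were also lower. Cycs, somatic cytochrome c, had 177, 243, 227 and 233 FPKM in the knockout and 404, 452, 420 and 539 in WT. Bcs1l, the ATPase that brings the Rieske protein into the nearly finished complex, had 4.28, 9.90, 6.79 and 6.47 FPKM against 13.3, 13.4, 14.9 and 18.4. The groups did not overlap in either, although the WT level of Cycs was far above that of Bcs1l. The log2 changes were -1.04 for Cycs (SE 0.125, limma adjusted p = 9.45e-05) and -1.06 for Bcs1l (SE 0.2, limma adjusted p = 0.00134). Of the 50-base stretches of the Cycs transcripts 28.5% also occur in transcripts of other genes, mostly its processed copy Gm10053, so its level is uncertain where reads were split. At least 20% of these stretches were shared, on either strand, for 8 of the 35 genes (Cycs, Uqcrc2, Uqcrb, Cox5a, Cox5b, Cox7c, Cox11 and Sco2), and none for 13.

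**Figure D2:**
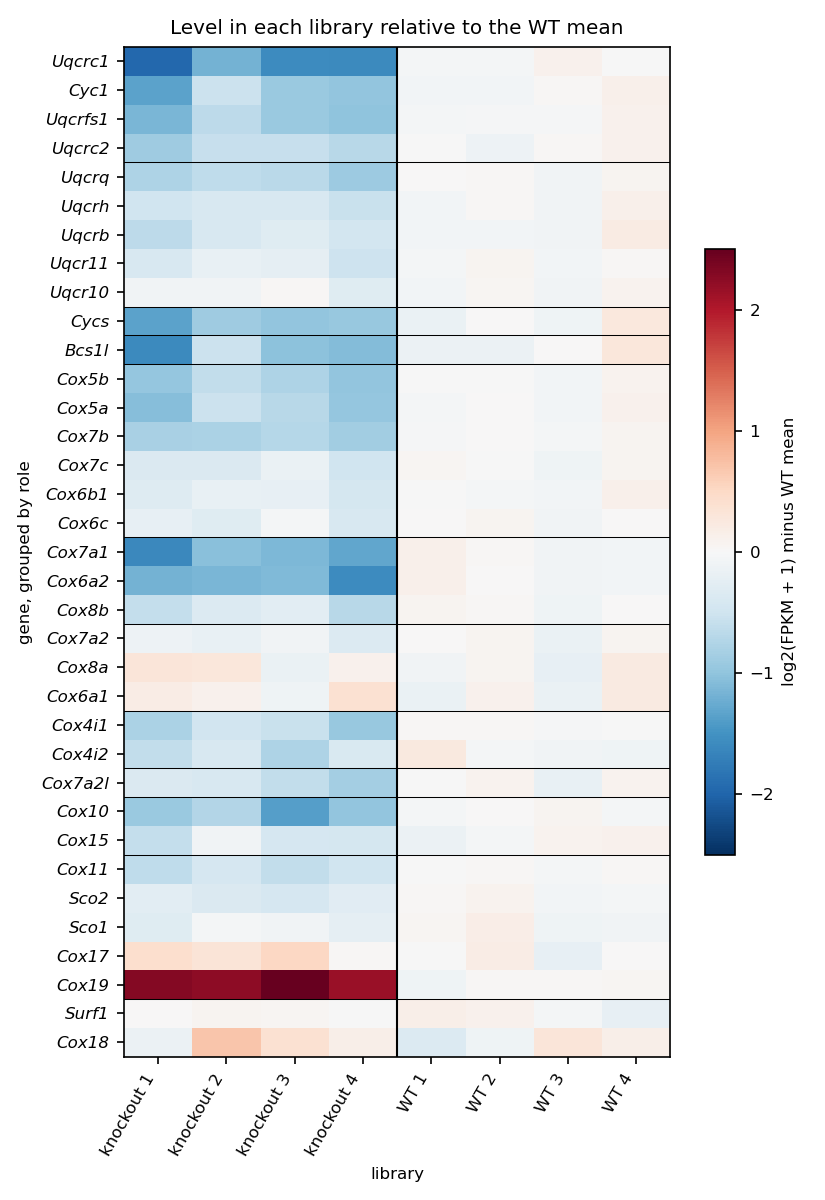
Level of each gene (y axis, grouped by role) in each of the 8 libraries (x axis) as log2(FPKM + 1) minus the mean of the 4 WT libraries. Blue fields are lower and red fields higher than the WT mean on the deposited scale; the knockout columns are blue for most subunits and deep red for Cox19, and knockout 1 is the darkest blue for Uqcrc1, Cyc1 and Uqcrfs1.

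In complex IV the 6 subunits with a single listed form were all called lower, with a median log2 change of -0.57, although the 3 smallest changes depended on the scaling. Cox5b, the zinc-binding subunit, had 862, 1103, 999 and 853 FPKM in the knockout and 1681, 1686, 1612 and 1808 in WT. Cox5a, its neighbour on the matrix side, had 693, 1005, 902 and 747 FPKM against 1412, 1456, 1388 and 1574. Cox7b, a single-span membrane subunit, had 474, 481, 505 and 453 FPKM against 816, 830, 796 and 871. These 3 genes had no overlap between groups and knockout means of 56.2%, 57.4% and 57.7% of WT. Their log2 changes were -0.84 (SE 0.0992, limma adjusted p = 8.8e-05), -0.81 (SE 0.121, limma adjusted p = 0.000338) and -0.79 (SE 0.0692, limma adjusted p = 1.61e-05). The 4 knockout values of Cox7b lay closer together (SD 21.6 FPKM) than those of Cox5a (SD 143) or Cox5b (SD 120).

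The other 3 were the most abundant of these and had the smallest estimates. Cox7c was at 1463 ± 143 FPKM in the knockout and 1854 ± 94.0 in WT (SD, n = 4 each), Cox6b1 at 1962 ± 155 and 2388 ± 142, and Cox6c at 2186 ± 225 and 2573 ± 119. Their log2 changes were -0.34, -0.29 and -0.24, but after quantile normalization they reversed to 0.11, 0.36 and 0.46. Cox6c overlapped between the groups; its call (limma adjusted p = 0.0463) was lost when any 1 of 7 of the 8 libraries was left out, all but knockout 3. Cox6b1 lost its call without WT 4 (limma adjusted p = 0.0504).

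The 3 subunits with a muscle form gave a different picture for each form. Cox6a2, Cox7a1 and Cox8b, made mainly in heart and skeletal muscle, were all called lower, with a median log2 change of -1.25. Their broadly made partners Cox6a1, Cox7a2 and Cox8a had a median of 0.13, and limma called 0 of the 3, with 0 under an unadjusted p of 0.05. After rescaling the median of the broad partners was -0.15, Cox6a1 (-0.13) and Cox8a (-0.15) changed sign without being called, and Cox7a2 was called lower, at -0.46; the authors' deposited table marks Cox7a2 as lower too (q = 0.00448). The summed level of the muscle forms was 3261 to 4179 FPKM in the knockout libraries and 6986 to 8100 in WT. That of the broad forms was 1135 to 1289 FPKM against 1084 to 1354, so these sums overlapped.

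Cox6a is a membrane subunit whose muscle form is known to bind ADP. Cox6a2 (chromosome 7, 128205435 to 128206366, mm10) had 1133, 1158, 1195 and 862 FPKM in the knockout and 2818, 2597, 2410 and 2455 in WT. Cox6a1 had 257, 243, 208 and 294 FPKM against 200, 241, 201 and 262. The muscle form was lower in every knockout library, while the values of the broad form interleaved. Cox6a2 changed by -1.25 (SE 0.116, limma adjusted p = 2.21e-05) and Cox6a1 by 0.15 (95% interval -0.16 to 0.46, limma adjusted p = 0.337). Cox6a2 made up 81.5%, 82.7%, 85.2% and 74.6% of the pair in the knockout libraries and 93.4%, 91.5%, 92.3% and 90.3% in WT.

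Cox7a lies where complex IV meets its partners. Cox7a1 (chromosome 7, 30184171 to 30186030, mm10) had 978, 1447, 1369 and 1206 FPKM in the knockout and 3260, 3034, 2793 and 2843 in WT. Cox7a2 had 605, 580, 619 and 516 FPKM against 665, 693, 585 and 690. Again only the muscle form separated the groups. Cox7a1 changed by -1.27 (SE 0.126, limma adjusted p = 3.29e-05) and Cox7a2 by -0.18 (95% interval -0.40 to 0.04, limma adjusted p = 0.104). Cox7a1 made up 61.8% to 71.4% of the pair in the knockout libraries, lowest in knockout 1, and 80.5% to 83.1% in WT.

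Cox8 is the smallest of the 3 subunits. Cox8b (chromosome 7, 140898942 to 140900446, mm10) had 1274, 1527, 1616 and 1193 FPKM in the knockout and 2021, 1971, 1783 and 1948 in WT. Cox8a had 427, 419, 307 and 374 FPKM against 326, 364, 299 and 402. Cox8b did not overlap between the groups, and it changed by -0.47 (95% interval -0.74 to -0.20, limma adjusted p = 0.00456), where the intervals of Cox6a2 and Cox7a1 were -1.53 to -0.97 and -1.58 to -0.96. After quantile normalization the change of Cox8b was -0.02 and not called. Cox8a changed by 0.13 (95% interval -0.18 to 0.45, limma adjusted p = 0.401). Cox8b made up 74.9%, 78.5%, 84.0% and 76.1% of the pair in the knockout libraries and 86.1%, 84.4%, 85.6% and 82.9% in WT, so that knockout 3 fell within the WT range.

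The ratio of muscle to broad form does not depend on a factor common to a library. The mean log2 ratio of Cox6a2 to Cox6a1 was 2.11 ± 0.407 in the knockout and 3.51 ± 0.250 in WT (SD, n = 4 each), a difference of -1.40. That of Cox7a1 to Cox7a2 was 1.09 ± 0.278 and 2.18 ± 0.116 (SD, n = 4 each), a difference of -1.08. Both gave an exact two-sided permutation p of 0.0286, the smallest that the 70 assignments of 4 against 4 allow, and 0.0571 after adjustment over the 4 pairs compared, so neither passed the threshold of 0.05 after adjustment. The mean log2 ratio of Cox8b to Cox8a was 1.87 in the knockout and 2.48 in WT, a difference of -0.60 (exact permutation p = 0.0571, adjusted 0.0762), and did not pass. Without knockouts 1 and 4 the differences of these 3 ratios were -1.13, -0.95 and -0.35, and after quantile normalization they were -0.78, -0.55 and -0.20. Cox7a1 and Cox8b are also made in brown fat, whose summed markers were highest in knockout 4, although Cidea among them was highest in knockout 1 (61.9 FPKM, against 35.3 in knockout 4); their part in these ratios was not tested.

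**Figure D3:**
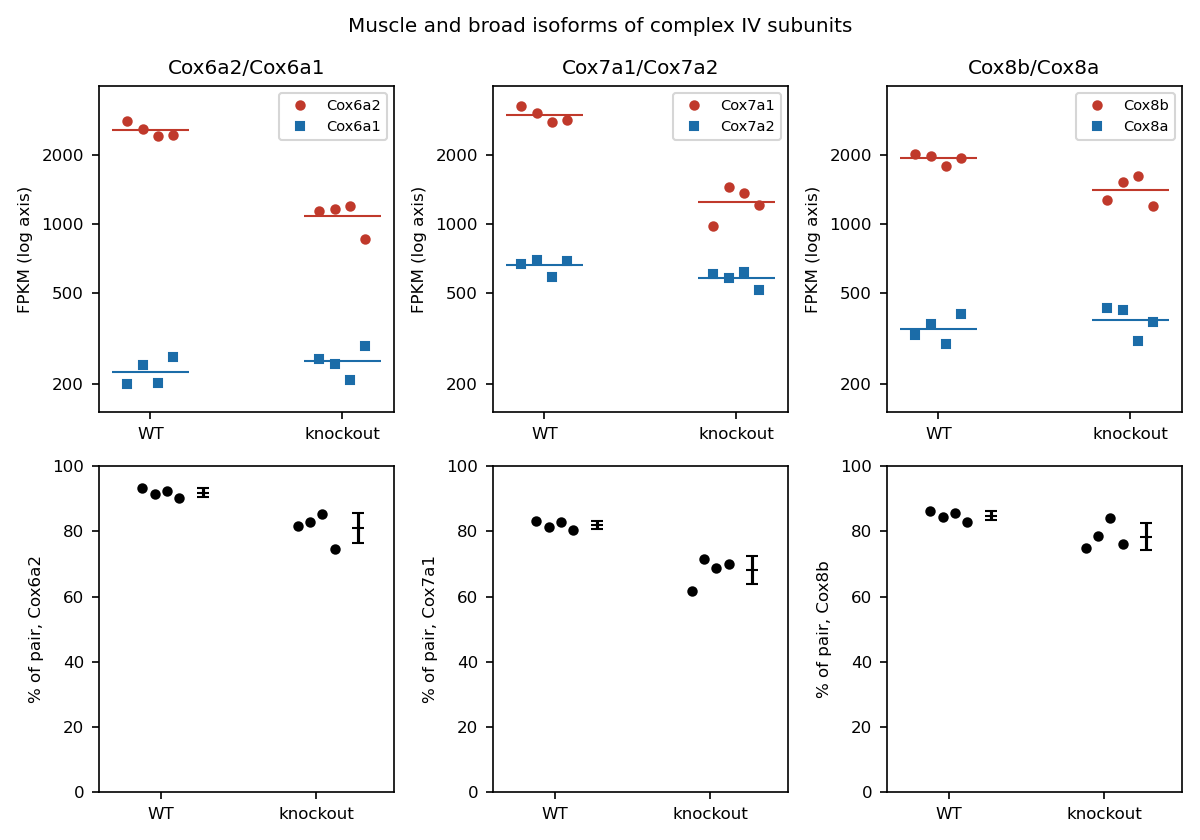
Upper panels: FPKM on a log axis of the muscle form (red circles) and the broad form (blue squares) of 3 complex IV subunits in each WT and knockout library, with lines at the group means. Lower panels: the muscle form as a percent of the pair, with bars for mean ± SD (n = 4); the percent is lower in all 4 knockout libraries for Cox6a2 and Cox7a1, and in 3 of 4 for Cox8b.

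In the fourth pair both forms were lower. Cox4i1, the regulatory subunit made in most tissues, had 1542, 1908, 1799 and 1374 FPKM in the knockout and 2702, 2708, 2593 and 2646 in WT. Cox4i2, the form known from lung and induced by low oxygen, had 7.55, 8.97, 6.72 and 9.11 FPKM against 14.6, 11.7, 11.4 and 11.2. Every knockout library was below every WT library for both, with log2 changes of -0.70 (limma adjusted p = 0.000441) and -0.54 (limma adjusted p = 0.00285), although Cox4i1 was not called after quantile normalization (-0.10). Cox4i2 made up 0.496% ± 0.119 of the pair in the knockout and 0.457% ± 0.0546 in WT (SD, n = 4 each), and the log2 ratio differed by 0.15 (exact permutation p = 0.486), with overlapping groups. Cox7a2l is a Cox7a relative listed as a factor for supercomplexes of complexes III and IV. It had 204, 198, 172 and 146 FPKM in the knockout and 262, 279, 231 and 280 in WT. It changed by -0.55 (SE 0.117, limma adjusted p = 0.00266) without overlap between the groups.

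Assembly factors did not move as a block. Among all genes tested, 16.4% were called lower and 44.9% higher on the deposited scale. Of the 10 factors, 5 were called lower and 2 higher, with a median log2 change of -0.25. Of the 23 structural subunits 19 were called lower and 0 higher, with a median of -0.54. The count of 0 for limma stayed 0 at an unadjusted p under 0.05, and after quantile normalization it became 3. The order of the medians of assembly factors and structural subunits turned with the scaling. After rescaling they were -0.49 and -0.80 (7 of 10 and 21 of 23 lower). After quantile normalization they were -0.48 and -0.16 (7 of 10 and 11 of 23 lower). Of all genes, 26.7% were lower and 26.9% higher after rescaling, and 25.6% and 28.7% after quantile normalization. Without knockouts 1 and 4, 4 assembly factors were lower and 3 higher, and 16 structural subunits were lower. The structural transcripts summed to 66.2% of the WT level in the knockout and the assembly transcripts to 139%; Cox17 and Cox19 had the highest mean levels of the 10 in both groups.

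The heme a enzymes were lower. Cox10, which adds the farnesyl tail to heme b, had 13.4, 15.4, 9.54 and 12.8 FPKM in the knockout and 25.3, 26.6, 27.8 and 25.5 in WT. Its groups lay far apart, and it changed by -1.0 on the log2 scale (SE 0.124, limma adjusted p = 0.000113). Cox15, which acts in the next step to heme a, was at 11.6 ± 2.01 and 15.3 ± 1.30 FPKM (SD, n = 4 each). It changed by -0.38 (limma adjusted p = 0.0171), and by -0.25 (limma adjusted p = 0.124) without knockouts 1 and 4.

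The copper factors split. Cox17 takes copper up in the intermembrane space and hands it to Sco1 and Sco2, which load the first copper center, and to Cox11, which loads the second. Cox11 was at 5.85 ± 0.502 and 8.94 ± 0.256 FPKM (SD, n = 4 each), a log2 change of -0.54, and Sco2 at 12.7 ± 0.667 and 16.2 ± 0.852, a change of -0.33; both were called, although the authors' deposited table does not mark Sco2 as significant (q = 0.138). Sco1, at 4.45 ± 0.422 and 5.11 ± 0.561 FPKM (SD, n = 4 each), changed by -0.17 and was not called on the deposited scale (95% interval -0.40 to 0.07). It was called lower after rescaling (-0.4, limma adjusted p = 0.0083) and after quantile normalization (-0.37, limma adjusted p = 0.012). The authors' deposited table marks Sco1 as lower too (q = 0.0167). Of the 50-base stretches of Sco2 87.7% and of Cox11 50.5% occur in transcripts of other genes, mostly the neighbours Ncaph2 and Tom1l1, so these levels are uncertain. Cox17 had 434, 406, 464 and 332 FPKM in the knockout and 323, 371, 282 and 329 in WT. The groups overlapped, and its rise of 0.32 (SE 0.121, limma adjusted p = 0.0431) was 0.04 and not called after rescaling, and was lost when any 1 of 6 of the 8 libraries was left out, all but knockout 4 and WT 2.

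Cox19, another copper-binding protein of the intermembrane space needed for complex IV, changed most of all 35 genes and in the opposite direction to the subunits. It had 161, 155, 198 and 147 FPKM in the knockout and 29.6, 32.7, 32.9 and 33.3 in WT. The lowest knockout library lay far above the highest WT library. Mean levels were 165 ± 22.3 and 32.1 ± 1.69 FPKM (SD, n = 4 each), and the log2 change was 2.32 (SE 0.0983, limma adjusted p = 4.68e-07), which was 2.05 after rescaling and after quantile normalization and 2.41 without knockouts 1 and 4. The authors' deposited table gives 2.08 (q = 0.000211). Its locus (chromosome 5, 139337822 to 139345166, mm10) has no overlapping gene in RefSeq, and 0.539% of its 50-base stretches occur elsewhere. Of its neighbours, Adap1 had 0.417 to 1.26 FPKM over the 8 libraries, Cyp2w1 was listed at 0 in all, 3110082I17Rik changed by 0.43 (limma adjusted p = 0.0438) and Gpr146 changed by -0.70 (limma adjusted p = 0.000292).

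The remaining factors were not called on the deposited scale. Cox18, which inserts a mitochondrially encoded subunit into the membrane, was at 7.51 ± 2.12 and 6.02 ± 1.37 FPKM (SD, n = 4 each), a change of 0.27 (95% interval -0.21 to 0.74); without knockouts 1 and 4 it was 0.54 (limma adjusted p = 0.0448). Surf1, which acts early in building the heme centers, was at 24.7 to 26.1 FPKM in the knockout and 21.4 to 27.7 in WT. Its change of 0.03 (95% interval -0.18 to 0.25) became -0.24 after rescaling and -0.23 after quantile normalization, both called lower.

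**Figure D4:**
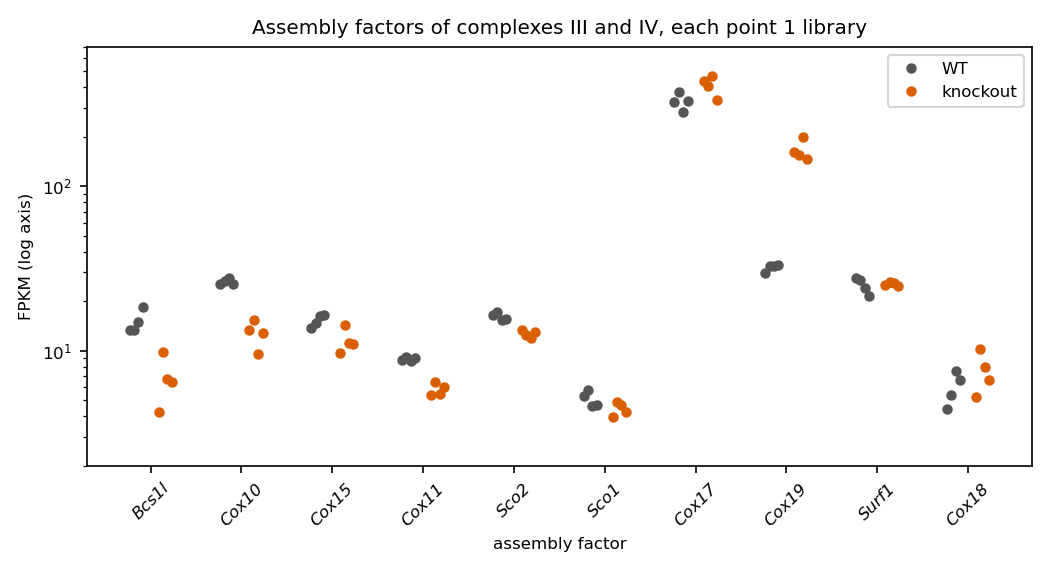
FPKM on a log axis of the 10 assembly factors (x axis), 1 point per library, WT in gray and knockout in orange (4 libraries each). Knockout points lie below all WT points for Bcs1l, Cox10, Cox11 and Sco2 and above them for Cox19; the groups overlap for Cox15, Sco1, Cox17, Surf1 and Cox18.

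Of 34 further genes listed with complexes III and IV, 31 passed the expression minimum, of which 15 were called lower and 3 higher, with a median log2 change of -0.23. Lrpprc, which stabilizes mitochondrial mRNAs, had 14.2, 23.8, 17.4 and 20.4 FPKM in the knockout and 54.5, 51.2, 56.1 and 54.3 in WT, a log2 change of -1.48 (limma adjusted p = 2.04e-05). Uqcc1, a factor for the synthesis of cytochrome b, had 21.7, 32.0, 28.0 and 27.1 FPKM against 65.9, 67.1, 67.5 and 76.2, a change of -1.32 (limma adjusted p = 1.45e-05). Cyb5r3, a cytochrome b5 reductase that was on the list but belongs to neither complex, had 254, 119, 175 and 114 FPKM against 37.0, 44.6, 40.2 and 34.2, a change of 1.99 (limma adjusted p = 8.23e-05). The other genes called higher, named after their values were seen, were Pet100 (0.74), a complex IV assembly factor, and Fdxr (0.64), ferredoxin reductase. After rescaling 20 of the 31 were lower and 3 higher, and after quantile normalization 21 and 3. Of 19 regulators of respiratory genes, 9 were called lower and 4 higher. After rescaling 13 were lower and 0 higher, and after quantile normalization 13 and 1. Of all genes tested, 16.4% were lower and 44.9% higher on the deposited scale. These shares were 26.7% and 26.9% after rescaling, and 25.6% and 28.7% after quantile normalization.

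The neighbouring complexes were also mostly lower, with 30 of 36 complex I subunits called lower (median -0.62) and 16 of 17 ATP synthase subunits (median -0.61), beside 8 of 9 for complex III (median -0.69) and 11 of 14 for complex IV (median -0.51); differences between these medians were not tested. After rescaling 36 of 36 complex I subunits (median -0.9) and 16 of 17 ATP synthase subunits (median -0.89) were lower. For complex III 9 of 9 (median -0.97) and for complex IV 12 of 14 (median -0.77) were then lower. After quantile normalization 30 complex I subunits were lower (median -0.57), but 8 of 17 ATP synthase subunits were lower and 1 higher (median -0.16). For complex III 5 of 9 were then lower and 1 higher (median -0.54), and for complex IV 6 of 14 and 2 (median -0.13). Of all genes, 16.4% were lower on the deposited scale, 26.7% after rescaling and 25.6% after quantile normalization. As a share of the FPKM total, complex III subunits made up 1.34% to 1.52% in the knockout libraries and 1.9% to 2.05% in WT. Complex IV subunits made up 2.67% to 3.13% and 4.12% to 4.34%. Within the knockout, libraries 1 and 4 held the lowest values for most subunits. Knockout 4 was lowest for 13 of the 23 structural subunits and knockout 1 for 7, whereas knockout 2 was highest for 11 and knockout 3 for 9. The median of the 23 subunits, relative to the WT mean on the log2 scale, was -0.65, -0.40, -0.57 and -0.69 in knockouts 1 to 4 and -0.08 to 0.07 in the WT libraries.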

How the data were processed

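RNA of 8 ventricle samples was sequenced, and reads were aligned to mm10 with TopHat (application version 1.0.0) then assembled and tested with Cufflinks and Cuffdiff, as the submitters' processing notes list. For the annotation, the read length and the use of strand, nothing is given in the sources used here. Per the file headers, the authors deposited a table of FPKM with 23847 rows; 312 rows hold a word in place of a number in every library and WT 2 has 1 further such cell (313). Their value of 0.001 for an estimate of 0 was set to 0. FPKM falls for a gene when others take more of the total. The second table deposited by the authors gives pooled FPKM, log2 fold changes, a test score, p-values and q-values.

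The main test was limma 3.58.1 (R 4.3.3) with an intensity trend on log2(FPKM + 1), for the 11975 genes averaging 1 FPKM or more, with two-sided Benjamini-Hochberg adjusted p-values under 0.05 called. The 95% intervals took the limma SE and a t quantile at the residual degrees of freedom of 4 against 4 libraries. Limma adds prior degrees of freedom to these, so the intervals are wider than those of its test. Isoform ratios were compared by exact permutation tests over libraries, two-sided. The procedure was run on simulated libraries of 11556 genes. Of these, 67, 67 and 66 genes above a minimum WT level were changed by 0.5, 1 and 2 on the log2 scale, up and down alike. The procedure recovered 55.2% of log2 changes of 0.5, 94% of changes of 1 and 95.5% of changes of 2. Of its calls, 5.78% were unchanged genes. The simulation had no shift of scale between groups, so it cannot test the choice of scaling. It also changed a far smaller share of genes than was called here (44.9% higher and 16.4% lower), so its rates may not carry over. Deviations of same-numbered samples had correlations of 0.14, 0.033, -0.041 and -0.014, and those of differently numbered samples -0.119 to 0.162. No pairing was used in the main test, although such correlations cannot show whether samples were matched. Alternatives were other pseudocounts (0.1) and minimums (none, 5 FPKM), median-of-ratios rescaling, quantile normalization, other variance settings, a replicate block and each library left out; leaving out knockouts 1 and 4 was added after the data were seen. Shared sequence was counted in 50-base stretches of GENCODE M21 transcripts. Promoters come from RefSeq.

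All 35 genes are named. Values in every library are given for the isoform pairs, for the 3 largest changes among complex III core subunits, complex III small subunits, complex IV subunits with a single form and all assembly factors, for Cycs, Bcs1l and Cox7a2l and for genes called higher; of the further complex III and IV genes the 3 largest called changes are named. The members and lists were chosen with earlier results of these data known.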

Additional observations from a re-analysis of the deposited data

Results flagged for a closer look

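In 6 of 80 groups of 4 values checked, 1 library lay apart from the other 3 by more than Dixon's 95% critical value allows, and chance gives about 1 in 20 such groups. All 6 were WT values. WT 3 had 772 FPKM of Uqcrc1, with 700 to 711 in the other WT libraries. WT 4 had 802 FPKM of Uqcrfs1 (718 to 731 in the others) and 1646 FPKM of Uqcrb (1351 to 1369 in the others). WT 1 had 14.6 FPKM of Cox4i2 (11.2 to 11.7 in the others) and a log2 ratio of Cox4i2 to Cox4i1 of -7.43 (-7.76 to -7.71 in the others), which rests on the same value. WT 1 also had 29.6 FPKM of Cox19, with 32.7 to 33.3 in the others, while the knockout libraries had 147 to 198.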

How the results depend on the processing

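Scaling changed the counts most, and the cause was not tested. Median-of-ratios rescaling gave 3219 genes higher and 3203 lower, and quantile normalization 3432 and 3066. Of the 35 genes, 1 was called higher without an expression minimum, after rescaling and with a replicate block, 5 after quantile normalization, and 1 to 2 with each library left out. Of the assembly factors, 1 was called higher without a minimum, after rescaling and with a replicate block, and 1 to 2 with each library left out. Without a minimum, 22 of the 35 genes and 15 structural subunits were lower, since Uqcr11 (limma adjusted p = 0.0587), Cox7c (0.0523), Cox6b1 (0.126) and Cox6c (0.224) lost their calls. Quantile normalization left 11 structural subunits lower and made 3 higher. It reversed Uqcrh (0.01), Uqcr10 (0.29), Uqcr11 (0.13), Cox6b1 (0.36), Cox6c (0.46) and Cox7c (0.11), and Surf1 reversed to -0.24 after rescaling and -0.23 after quantile normalization. With a replicate block, 5089 genes were higher and 1867 lower, Cox6b1, Cox6c and Cox17 lost their calls, and no other of the 35 calls changed. Without knockouts 1 and 4, Uqcr11, Cox6b1, Cox6c and Cox15 lost their calls and Cox18 gained one. Over the 9 alternatives that kept all libraries, 22 of the 35 genes kept their side of the threshold with no call reversed, among them Cox6a1 and Cox8a, which were not called and changed sign after rescaling. Over the 9 that left libraries out, 29 did, among them Surf1, not called, which changed sign without WT 4 (-0.04). A limma test of the ratios over all 8 libraries gave the same differences, -1.40, -1.08 and -0.60. Its adjusted p-values over the 4 pairs were 0.000164, 0.000107 and 0.00971. The exact permutation test on the same libraries gave adjusted p-values of 0.0571, 0.0571 and 0.0762, so the 2 tests differ on these ratios. With 3 against 4 libraries the exact test cannot go below 0.0571. The unknown number of fragments limits what can be said of genes at a few FPKM, such as Sco1 and Bcs1l.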
